A study of Homo sapiens with 32 samples.

Results

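The comparison described here sets 8 of the 32 libraries of the series against each other: libraries 10, 12, 14 and 16 (the even-numbered libraries) against libraries 11, 13, 15 and 17 (the odd-numbered libraries). These 8 columns of the count table were chosen by their measured values, not by their labels, since their profiles are those of HEK293T cells and since the split gave a contrast like that of camptothecin (CPT) against DMSO in HEK293T cells. That the even-numbered libraries are CPT-treated and the odd-numbered ones DMSO-treated is therefore inferred. The labels say otherwise: they call the 4 even-numbered libraries U2OS ATM KO and libraries 11, 13 and 15 U2OS WT, each grown for 72 h with no treatment, and only library 17 HEK293T DMSO, with 24 h of treatment and 48 h of recovery. Since this contrast chose the libraries, the differences between the sets are given as a description with no p-value, and nothing is supported with them. A gene was called higher or lower where the fitted log2 fold change, even minus odd, was over 1 in size and the CPM of the sets, scaled by TMM (a factor per library that offsets differences in composition), did not overlap. Printed CPM are a gene's counts scaled to the same total of counts on genes in every library, without that factor. Fold changes in parentheses below are these fitted log2 values with their standard error (SE), and values of a set are listed in the order of the library numbers.

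HEK293T is a line from human embryonic kidney that carries the SV40 large T antigen, which binds p53 and RB, and U2OS is an osteosarcoma line. The labels name no ATM inhibitor, clone or separate culture for these 8 libraries. The study describes the repeats of each experiment as independent, and the labels do not say how that holds for these regrouped columns. RNA was read with the QuantSeq 3′ method, which primes on poly(A) tails and reads 1 fragment end per transcript, so long and short transcripts yield alike numbers of counts. Of 4 further HEK293T DMSO libraries (22 to 25) the values are set alongside as an outside reference. Of the libraries labelled U2OS CPT (26 to 29) and U2OS DMSO (30 to 33), which the choice did not use, the labelled contrast was tested. Their labels give CPT or DMSO, while the protocol text attached to them describes U2OS cells as untreated.

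CPT traps topoisomerase 1 on DNA after it has cut 1 strand, and replication and transcription that run into the trapped complex turn it into a break. Breaks activate the kinases ATM and ATR, which stabilise p53 and hold the cell cycle. Stress on translation or amino acid supply acts through a separate route, the integrated stress response, in which the factor ATF4 drives genes for amino acid synthesis, amino acid import and transfer RNA charging. Heat shock factor 1 (HSF1) drives chaperones when proteins misfold, and SRF and the AP-1 factors drive the immediate early genes. The sequences below show the start of genes that carry the main contrast, from RefSeq on GRCh38.p14, each 300 bases long and reaching from upstream of the start to just past it, 5′ to 3′ on the gene's strand. Capitals mark a match to TGATGNAA, the core of the ATF4 site, on either strand in ASNS and CHAC1, which were lower in the even-numbered libraries. In EGR1 they mark CArG boxes, the SRF site, and in DNAJA1 the heat shock element (GAA, TTC and GAA, with gaps of 2 bases between them, or its reverse complement), and both genes were higher.
ASNS, chr7:97872359-97872658, minus strand: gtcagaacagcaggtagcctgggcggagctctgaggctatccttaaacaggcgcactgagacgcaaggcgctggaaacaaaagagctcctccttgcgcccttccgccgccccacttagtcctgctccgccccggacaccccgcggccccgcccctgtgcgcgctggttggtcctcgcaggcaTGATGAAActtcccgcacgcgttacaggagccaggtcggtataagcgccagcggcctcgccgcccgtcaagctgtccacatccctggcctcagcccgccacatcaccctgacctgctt
CHAC1, chr15:40953221-40953520, plus strand: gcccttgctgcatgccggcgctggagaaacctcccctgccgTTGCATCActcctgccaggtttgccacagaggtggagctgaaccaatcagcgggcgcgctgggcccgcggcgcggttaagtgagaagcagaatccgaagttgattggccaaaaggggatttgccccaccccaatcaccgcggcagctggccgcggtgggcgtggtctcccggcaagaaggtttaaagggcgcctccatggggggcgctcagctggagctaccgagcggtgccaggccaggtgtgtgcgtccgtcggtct
EGR1, chr5:138465229-138465528, plus strand: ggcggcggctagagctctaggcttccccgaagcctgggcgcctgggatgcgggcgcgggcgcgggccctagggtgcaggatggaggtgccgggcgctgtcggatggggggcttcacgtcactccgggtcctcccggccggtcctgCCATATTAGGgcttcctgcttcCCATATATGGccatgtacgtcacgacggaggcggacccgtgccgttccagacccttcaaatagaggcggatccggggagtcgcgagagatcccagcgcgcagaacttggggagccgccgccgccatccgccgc
DNAJA1, chr9:33025023-33025322, plus strand: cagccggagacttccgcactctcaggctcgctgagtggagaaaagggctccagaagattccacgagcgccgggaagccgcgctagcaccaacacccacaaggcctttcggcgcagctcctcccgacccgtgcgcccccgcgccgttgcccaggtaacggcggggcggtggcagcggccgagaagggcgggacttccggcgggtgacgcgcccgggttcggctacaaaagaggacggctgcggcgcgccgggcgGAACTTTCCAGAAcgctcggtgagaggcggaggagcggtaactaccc

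Among the ATF4 list, 22 of 28 members had a promoter in the RefSeq table, and 5 of these (22.7%) held TGATGNAA, against 3.67% of all 27305 promoters of the same length. The 5 were ASNS, CHAC1 and SLC7A1, all called lower, with SLC3A2 and ATF3, which were not called. Of 24 HSF1 and chaperone genes with a promoter, 5 (20.8%) held the heat shock element, against 0.487% of all. Only DNAJA1 of these was called, the others being DNAJB6, SERPINH1, CHORDC1 and HSPA8. A CArG box stood in 1 of 17 immediate early genes with a promoter (5.88%, against 1.28% of all), namely EGR1, where the search found 2. These are matches of letters, and no binding was measured.

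The likeness to HEK293T cells was among the values that chose the 8 libraries and is given as a description. Over 14789 genes, the log2(CPM + 1) values of the even-numbered libraries correlated with the mean of HEK293T DMSO libraries 22 to 25 at r = 0.937 to 0.947, and those of the odd-numbered ones at r = 0.967 to 0.975. With the mean of U2OS DMSO libraries 30 to 33, r was 0.749 to 0.756 and 0.735 to 0.739. The labels call 7 of the 8 U2OS. The libraries labelled HEK293T CPT (2, 4, 6 and 8) were nearer to U2OS, with r of 0.941 to 0.954 to U2OS DMSO and 0.738 to 0.755 to HEK293T DMSO, and were not used here. The summed CPM of 10 HEK293T-like markers was 1462 to 1725 in the even-numbered and 1616 to 2068 in the odd-numbered libraries, against 292 to 331 in U2OS DMSO. Among them CKB was the most abundant, at 667 to 886 CPM in the even-numbered and 798 to 984 CPM in the odd-numbered libraries. NEFL went the other way, at 65.6 to 96.3 CPM and 69.9 to 121 CPM against 155 to 180 CPM in U2OS DMSO. PAX2 and CD24 overlapped U2OS DMSO in the odd-numbered libraries, and the other members lay above it in both sets. The summed CPM of 12 U2OS-like mesenchymal markers was 189 to 303 in the even-numbered libraries, 82.4 to 90.7 in the odd-numbered ones, 113 to 161 in HEK293T DMSO libraries 22 to 25 and 5502 to 6886 in U2OS DMSO. Within this list CLU (81.5 to 149 CPM against 29.1 to 45.2 CPM), CAV1 (36.4 to 43.5 against 16.1 to 25.3 CPM), LGALS1 (22.5 to 45.1 against 6.21 to 8.08 CPM) and ANXA1 (29.3 to 39.6 against 3.77 to 4.91 CPM) were higher in the even-numbered libraries without overlap. COL1A1, the most abundant of the list in U2OS DMSO, overlapped, at 16.95 to 23.6 CPM against 15.1 to 21.7 CPM. CD44, S100A6, AXL, CRYAB, THY1 and COL1A2 were at or near 0 in all 8 libraries, none above 1.33 CPM. The part of the higher mesenchymal sum in the results below was not tested.

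Counts on genes ran from 3126324 to 6362433 in the even-numbered libraries and from 4500361 to 5937539 in the odd-numbered ones, so that 3 counts, taken as the floor of detection, equal 0.472 to 0.960 CPM in a library. Such limits cover counting error only. The even-numbered libraries had more genes with a count (20189 to 23512, against 19083 to 19727), a larger share of counts on mitochondrially encoded genes (13.7% to 18.8%, against 9.70% to 11.1%) and a larger share of reads on no gene (15.8% to 18.5%, against 9.39% to 10.99%). The sets did not overlap in any of these 3 measures, while their totals did; no test is given, since the split was chosen on these libraries. In HEK293T DMSO libraries 22 to 25 the mitochondrial share was 14.4% to 17.4% and the share on no gene 23.6% to 30.4%. These measures move with the split, and their part in the differences was not tested.

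ATM, the gene of the labels, did not follow them. In the 4 libraries labelled ATM KO it stood at 39.8, 39.5, 31.99 and 28.8 CPM, and in the odd-numbered libraries at 26.6, 21.2, 34.2 and 36.3 CPM (log2 fold change 0.22, SE 0.16). The sets overlapped, and both lay below the 72.4, 81.97, 58.9 and 57.8 CPM of HEK293T DMSO libraries 22 to 25. TOP1, which encodes the enzyme that CPT traps, stood at 872, 837, 997 and 1156 CPM in the even-numbered and 616, 599, 498 and 458 CPM in the odd-numbered libraries. The sets did not overlap, and the log2 fold change of 0.80, SE 0.13 was below the threshold. In U2OS cells TOP1 gave a log2 fold change of -0.16 (SE 0.14, adjusted p = 0.427) with CPT by the quasi-likelihood test of edgeR, here and below with p-values adjusted after Benjamini and Hochberg.

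Across 19464 genes measured, 1594 were called higher in the even-numbered libraries (8.19%) and 830 lower (4.26%). The first principal component held 50.9% of the variance and separated the sets, as the choice of libraries implies. The balance depended on the level of the gene. Among the 10096 genes with a mean log2 CPM over 3, 311 were called higher and 507 lower, whereas among the 5825 genes with a mean log2 CPM of 0 to 3, 864 were higher and 269 lower. The filterByExpr filter of edgeR, which asks for more counts, left 797 higher and 555 lower. Of the genes called higher, 169 had no count in any odd-numbered library. The median over all genes was 0.04 on the log2 scale. Of 67 named genes that were called, 10 were not called with HEK293T DMSO libraries 22 to 25 in place of the odd-numbered ones, namely ANKRD1, XBP1, CENPE, CDKN2D, TOP1MT, INSIG1, BCL2L11, ULK1, MT-ND1 and MT-ND5. With 1 library left out, the fold of BAG3 (without library 10, 12 or 13), MT-ND1 (10), MT-ND5 (10, 11 or 12) and CENPE, HK2 and PDK1 (16) dropped under the threshold, to between 0.92 and 0.98 in size. In bulk RNA, fewer cells of a kind and less RNA per cell cannot be told apart.

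By kind of transcript, small nucleolar RNAs stood out among the higher genes, with 35 of 98 called higher and 0 lower (median 1.501). Long intergenic RNAs had 148 of 1193 higher (12.4%) and 32 lower (2.68%), and protein-coding genes 1032 of 14200 higher (7.27%) and 654 lower (4.61%). Of all genes, 8.19% were higher and 4.26% lower. The kinds were not matched for level. Of all genes with a mean log2 CPM of 0 to 3, 14.8% were called higher, and of those under 0, 11.8%. Mature small nucleolar RNAs guide the modification of other RNAs and carry no poly(A) tail. SNORD46 stood at 27.9, 49.7, 36.5 and 20.7 CPM in the even-numbered libraries and at 2.19, 4.57, 4.22 and 1.77 CPM in the odd-numbered ones (log2 fold change 3.33, SE 0.28). SNORD13 stood at 92.8, 199, 115 and 146 CPM against 7.92, 19.6, 16.4 and 9.53 CPM (3.33, SE 0.24). Both were several-fold higher in every even-numbered library than in any odd-numbered one. In U2OS cells with CPT the same RNAs moved apart, since SNORD46 gave a log2 fold change of -2.17 (SE 0.56, adjusted p = 0.00294) and SNORD13 a log2 fold change of 1.82 (SE 0.21, adjusted p = 3.66e-08) by the quasi-likelihood test of edgeR. SNORD46 was near the floor of detection there, at 0.588, 0, 1.39 and 0.312 CPM with CPT and 1.85, 3.78, 3.22 and 2.88 CPM with DMSO.

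The 23 gene lists below hold genes of 1 pathway or function each, and they were chosen with earlier results of these data known. Their members' log2 fold changes are set against the 0.04 median of all genes. The lists with the highest medians were the immediate early and AP-1 factors, the NF-kB targets, the replication-dependent histones and the neural and hormone genes, and the ATF4 list lay lowest. The order at the top rests in part on scarce genes. With the filterByExpr filter the median of the neural and hormone genes was 0.67 and that of the NF-kB targets 0.85, beside 0.83 for p53 targets. With log2 ratios of mean CPM + 1 the neural, histone and NF-kB medians were 0.55, 0.74 and 0.78, beside 0.70 for p53 targets.

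Genes of the ATF4 and amino acid stress response were lower as a group. Of 28 members, 20 were called lower and 0 higher, beside 4.26% and 8.19% of all genes, with a median log2 fold change of -1.78. SLC7A11, the cystine importer that feeds glutathione synthesis, stood at 21.7, 22.2, 24.6 and 15.6 CPM in the even-numbered libraries against 142, 279.7, 297 and 181 CPM in the odd-numbered ones (-3.47, SE 0.21). The highest even-numbered library lay several-fold below the lowest odd-numbered one. ASNS, asparagine synthetase, stood at 34.9, 24.7, 28.1 and 31.9 CPM against 209, 398, 267 and 184 CPM (-3.18, SE 0.21). The odd-numbered libraries spread over a wider range than the even-numbered ones, with library 13 highest. CHAC1, which degrades glutathione, was at 2.76, 4.32, 8.64 and 5.03 CPM against 22.2, 40.95, 55.996 and 18.6 CPM (-2.76, SE 0.32). For DDIT4, an inhibitor of mTORC1, the values were 30.3, 23.1, 23.4 and 33.2 CPM against 209.5, 112, 219 and 198 CPM (-2.74, SE 0.17). None of the 4 genes overlapped between the sets. HEK293T DMSO libraries 22 to 25 held 349, 372, 261 and 246 CPM of ASNS, 281, 265, 275 and 209 CPM of SLC7A11, 42.2, 36.6, 56.4 and 54.5 CPM of CHAC1 and 245, 209.9, 196 and 170.3 CPM of DDIT4. The odd-numbered libraries overlapped these ranges, but libraries 11 and 17 lay below them for ASNS, SLC7A11 and CHAC1 and library 13 for DDIT4.

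The transcript of ATF4 itself stood at 290.3, 247, 308 and 332 CPM in the even-numbered and 976, 1491, 959.9 and 767 CPM in the odd-numbered libraries (-1.87, SE 0.17). It was named after its value was seen, as were the following members. Every step of serine synthesis was lower, with log2 fold changes of -1.74 for PHGDH, -2.34 for PSAT1 and -1.07 for PSPH, and so were the mitochondrial folate enzymes SHMT2 (-1.93) and MTHFD2 (-1.55). Of the amino acid carriers, SLC7A5 (-2.13), SLC7A1 (-1.70) and SLC1A5 (-1.44) were called lower, and SLC3A2, the heavy chain of SLC7A5 and SLC7A11, was at -0.93 and not called. TRIB3, a pseudokinase induced by ATF4, was at -1.94. Among the members not called, DDIT3 (CHOP) was at -0.48, PPP1R15A (GADD34) at 0.13, ATF3 at 0.28, ATF5 at 0.67 and NUPR1 at -2.20. Against HEK293T DMSO libraries 22 to 25 the list's median was -1.48 for the even-numbered and 0.17 for the odd-numbered libraries. The first of these shares its even-numbered libraries with the main contrast.

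**Figure D1:**
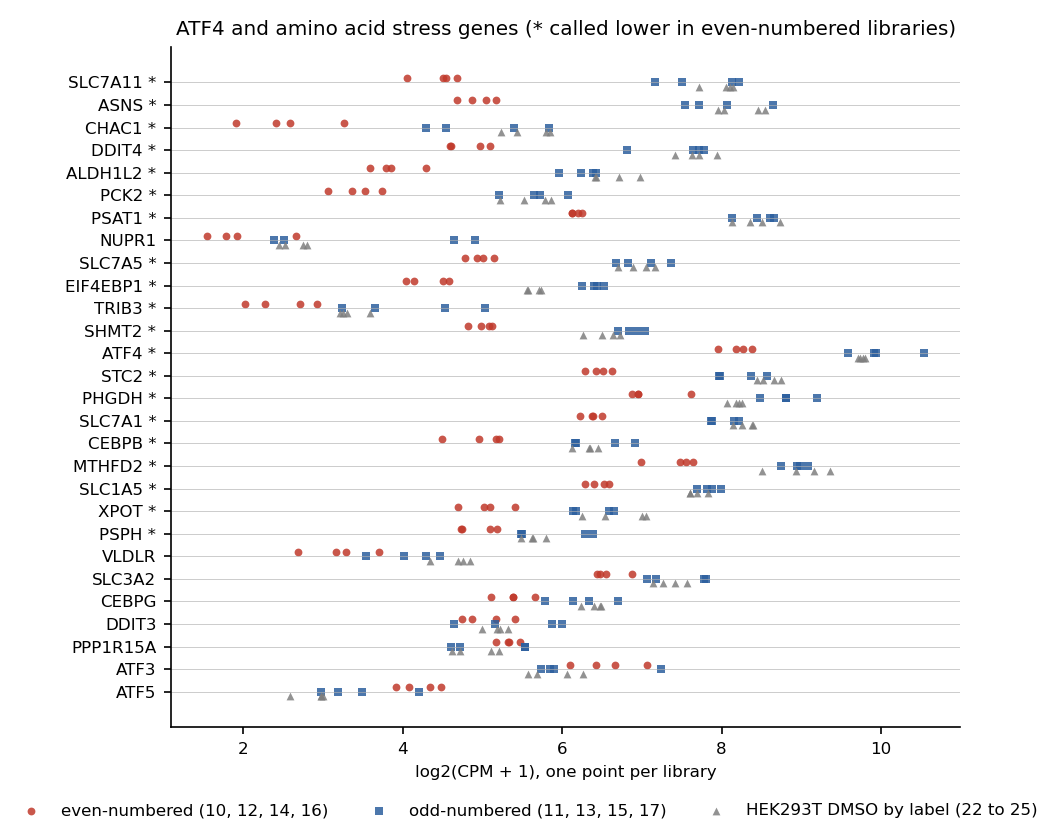
log2(CPM + 1) of the 28 members of the ATF4 list in each even-numbered (circles), odd-numbered (squares) and HEK293T DMSO library 22 to 25 (triangles), ordered by fold change; stars mark the 20 members called lower. For most members the circles lie to the left of both other sets, as for SLC7A11 and ASNS, while for ATF3, PPP1R15A and DDIT3 the sets overlap.

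Further genes among the 12 lowest also act in amino acid and folate metabolism. SLC6A9, a glycine carrier, stood at 1.22, 1.23, 1.599 and 2.67 CPM against 16.5, 34.9, 34.2 and 14.8 CPM (-3.79, SE 0.34). ALDH1L2, a mitochondrial folate enzyme that is itself on the ATF4 list, stood at 11.02, 18.5, 12.8 and 13.5 CPM against 61.3, 82.8, 84.7 and 74.2 CPM (-2.47, SE 0.16). Both were lower in every even-numbered library. ASNSP1, a pseudogene of ASNS, had the lowest fold change of all well-measured genes (-5.27, SE 0.54), with 0.306, 0.617, 0.320 and 0.472 CPM against 10.4, 30.5, 21.3 and 6.87 CPM. Its reads cannot be told from those of ASNS with certainty, and it does not count as a separate gene that differed. In U2OS cells, 3 of the 28 ATF4 list members were called down with CPT and 1 up, at backgrounds of 5.50% of 19080 genes down and 7.97% up, and the median was -0.04. SLC7A11 fell in U2OS (log2 fold change -1.89, SE 0.13, adjusted p = 8.54e-13), as did DDIT4 (log2 fold change -1.37, SE 0.27, adjusted p = 0.000136), and ASNS gave a log2 fold change of -0.66 (SE 0.14, adjusted p = 0.000411), by the quasi-likelihood test of edgeR. Whether U2OS and the 8 libraries differ in this list was not tested.

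MYC, which drives growth and ribosome synthesis, stood at 10.7, 13.6, 16.6 and 5.03 CPM in the even-numbered and 109, 47.7, 95.99 and 163 CPM in the odd-numbered libraries (-3.27, SE 0.29). The lowest odd-numbered library, 13, was still above every even-numbered one. HEK293T DMSO libraries 22 to 25 held 125, 93.7, 123 and 87.1 CPM, in the range of the odd-numbered ones. In U2OS cells MYC rose with CPT, from 13.3, 13.4, 16.7 and 9.37 CPM to 30.6, 28.8, 31.2 and 25.9 CPM (log2 fold change 1.32, SE 0.17, adjusted p = 1.85e-07 by the quasi-likelihood test of edgeR). Genes for ribosome biogenesis and other MYC targets were not called in any of 26 cases, beside 8.19% of all genes called higher and 4.26% lower. Of all genes with a mean log2 CPM over 6, the level of NCL and NPM1, 1.65% were called higher and 3.25% lower. Only 2 of the 26 members lay above 0, and the list median was -0.43. The lowest was UTP20 (-0.99, SE 0.14), with FBL at -0.84, SE 0.11, both named after their values were seen. NCL was at -0.28 and NPM1, the nucleolar protein nucleophosmin, at -0.57. This list lay above HEK293T DMSO libraries 22 to 25 in both sets, with a median of 0.18 for the even-numbered and 0.49 for the odd-numbered libraries.

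The other genes among the 12 lowest were not on a list. RUNX1T1, a transcriptional corepressor, stood at 6.43, 9.26, 5.44 and 9.74 CPM against 43.6, 41.3, 45.6 and 52.1 CPM (-2.54, SE 0.17), with HEK293T DMSO libraries 22 to 25 at 43.4, 43.1, 40.8 and 47.7 CPM. MFSD3, a membrane carrier, stood at 6.74, 6.79, 11.5 and 10.5 CPM against 51.2, 53.6, 40.4 and 52.8 CPM (-2.48, SE 0.18). In both genes the 4 odd-numbered libraries lay close together and close to the outside reference. LINC01419, a long intergenic RNA, stood at 2.14, 4.32, 5.12 and 2.51 CPM against 24.1, 38.4, 31.3 and 31.9 CPM (-3.24, SE 0.24). Here HEK293T DMSO libraries 22 to 25, at 6.28, 8.28, 9.27 and 7.998 CPM, lay between the sets. AL035425.3, annotated as overlapping another gene on the same strand so that its reads are uncertain, stood at 69.5, 84.3, 90.5 and 59.7 CPM against 449.7, 283, 416 and 491 CPM (-2.46, SE 0.15). For this gene HEK293T DMSO libraries 22 to 25 lay above both sets, at 750, 961, 786 and 769 CPM.

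Targets of p53 were higher as a group. HEK293T, the line inferred for these libraries, carries large T antigen, which binds p53, and that binding was not measured. Of 32 members, 8 were called higher and 0 lower, beside 8.19% and 4.26% of all genes, and 29 lay above 0 (median 0.76). Without library 15, 12 were higher, and against HEK293T DMSO libraries 22 to 25, 13 were. CDKN1A, the inhibitor p21 that halts the cell cycle, stood at 121, 149, 125 and 228 CPM in the even-numbered and 29.6, 19.5, 56.9 and 32.4 CPM in the odd-numbered libraries (2.17, SE 0.22). Library 16 was highest, and the sets did not overlap. GDF15, a secreted stress factor, stood at 67.1, 82.7, 43.8 and 88.5 CPM against 3.200, 5.25, 26.2 and 3.32 CPM (2.94, SE 0.38). Library 15 lay far above the other odd-numbered libraries and below every even-numbered one, and the log2 fold change was 4.12 without it. PLK2, a polo-like kinase, stood at 30.005, 36.7, 31.99 and 30.96 CPM against 2.69, 2.03, 4.000 and 5.32 CPM (3.22, SE 0.21), and TP53INP1, which promotes p53 activity and autophagy, at 30.3, 38.3, 31.03 and 54.1 CPM against 5.39, 6.43, 7.78 and 7.09 CPM (2.53, SE 0.20). The p53 inhibitor MDM2, at 1.14, was also called. In U2OS cells, whose p53 is wild type, CPT raised 18 of 31 members tested, beside 7.97% of all genes, and lowered 0 (median 1.25), among them CDKN1A (log2 fold change 2.24, SE 0.11, adjusted p = 1.85e-16) and GDF15 (log2 fold change 3.63, SE 0.16, adjusted p = 8.28e-18) by the quasi-likelihood test of edgeR. 5 of the 8 members called higher were also up in U2OS.

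Other stress genes were among the 12 highest. GADD45B, induced by stress and cytokines, stood at 62.2, 71.3, 49.6 and 54.5 CPM against 3.71, 4.23, 6.67 and 7.98 CPM (3.40, SE 0.20). SGK1, a kinase that regulates ion transport and survival, stood at 14.1, 22.8, 13.8 and 20.7 CPM against 2.19, 1.86, 2.22 and 0.665 CPM (3.30, SE 0.28). Each was higher in all 4 even-numbered libraries. In U2OS cells SGK1 fell with CPT (log2 fold change -1.62, SE 0.15, adjusted p = 5.57e-10 by the quasi-likelihood test of edgeR). BASP1, a membrane protein of nerve endings, stood at 60.01, 61.7, 75.8 and 93.7 CPM against 4.38, 6.26, 8.22 and 7.54 CPM (3.47, SE 0.19), and PRDM8, a nuclear regulator of neural genes, at 22.05, 24.4, 15.7 and 18.7 CPM against 2.86, 2.03, 1.78 and 2.22 CPM (3.12, SE 0.23). FILIP1L stood at 15.3, 21.3, 15.99 and 22.8 CPM against 0.674, 0.677, 1.33 and 1.99 CPM (4.04, SE 0.28). In all of these HEK293T DMSO libraries 22 to 25 lay below every even-numbered library as well, at 8.08, 8.28, 6.76 and 8.29 CPM for BASP1.

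2 of the highest genes need their levels beside them. CGA, the alpha subunit shared by the glycoprotein hormones, stood at 17.1, 16.98, 7.997 and 20.9 CPM against 0.168, 0.338, 0 and 0.443 CPM. Its log2 fold change of 5.89, SE 0.43 rests on 5 counts in all in the odd-numbered libraries. HEK293T DMSO libraries 22 to 25 held 1.196, 1.43, 0.752 and 1.48 CPM, below every even-numbered library. ANKRD1, a muscle ankyrin-repeat protein that is a target of YAP, stood at 23.9, 21.3, 12.5 and 33.3 CPM against 0.337, 1.18, 1.33 and 0.887 CPM (4.602, SE 0.34). The outside reference held 23.6, 23.7, 12.02 and 6.81 CPM, so it overlapped the even-numbered libraries and not the odd-numbered ones. In U2OS cells ANKRD1 rose with CPT (log2 fold change 2.22, SE 0.14, adjusted p = 2.25e-14 by the quasi-likelihood test of edgeR).

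Immediate early and AP-1 factors were the list with most members called higher: 16 of 22 were higher (8.19% of all genes) and 0 lower, with a median of 1.88, or 1.69 with SPRY4, which had no count in the odd-numbered libraries, at the bound that 3 counts set. Several of those called, FOS, DUSP5 and DUSP6 among them, had a mean log2 CPM of 0 to 3, where 14.8% of all genes were called higher. EGR1, JUNB, IER3 and SPRY2 had 3 to 6, where 3.76% were called higher. EGR1, a zinc finger factor of the growth response, stood at 19.9, 20.99, 25.9 and 25.5 CPM against 2.86, 5.42, 3.11 and 2.66 CPM (2.66, SE 0.23). JUNB, a subunit of AP-1, stood at 28.8, 34.6, 22.1 and 21.2 CPM against 5.22, 2.54, 5.56 and 4.21 CPM (2.58, SE 0.23). The groups were far apart in both. IER3, a survival gene, stood at 77.8, 84.9, 57.9 and 91.6 CPM against 15.3, 12.2, 12.9 and 15.96 CPM (2.45, SE 0.15), and SPRY2, which restrains growth factor signals, at 21.4, 26.2, 26.9 and 15.7 CPM against 7.41, 4.57, 7.999 and 9.75 CPM (1.57, SE 0.22). HEK293T DMSO libraries 22 to 25 lay between the sets for IER3, at 24.5, 22.6, 24.3 and 23.7 CPM. FOS was at 3.56 and the MAP kinase phosphatases DUSP5 and DUSP6 at 3.53 and 3.35, all at low levels, up to 7.72, 10.5 and 11.6 CPM. These 3 genes were named after their values were seen. In U2OS cells 5 of 19 members tested rose with CPT and 4 fell, beside 7.97% and 5.50% of all genes. Those that fell included IER3 (log2 fold change -1.01, SE 0.12, adjusted p = 2.26e-08) and SPRY2 (log2 fold change -1.26, SE 0.28, adjusted p = 0.000805) by the quasi-likelihood test of edgeR. The fold of IER3 came to -0.99 without library 27 and to -0.95 without library 33, under the threshold, and also dropped under it without library 26 or 31.

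Heat shock factor 1 targets and cytosolic chaperones, which hold and refold client proteins, were called higher in 5 of 28 cases and lower in 0, beside 8.19% and 4.26% of all genes, with 21 above 0 (median 0.53). Without library 14, 8 were higher. DNAJA1, a J-domain partner of HSP70, stood at 414, 446, 388 and 434 CPM in the even-numbered and 205, 153, 166 and 219 CPM in the odd-numbered libraries (1.16, SE 0.12). It was the most abundant member called. DNAJB4 stood at 50.8, 65.1, 49.6 and 49.5 CPM against 16.2, 9.82, 19.3 and 17.5 CPM (1.76, SE 0.17), and BAG3, a cochaperone that links HSP70 to small heat shock proteins and autophagy, at 47.5, 50.6, 41.3 and 33.01 CPM against 23.4, 14.7, 19.3 and 24.6 CPM (1.04, SE 0.17). For DNAJB4 HEK293T DMSO libraries 22 to 25 lay between the sets, at 26.3, 27.99, 21.5 and 24.3 CPM. Clusterin (CLU), an extracellular chaperone and also one of the U2OS-like markers, stood at 104, 81.5, 103 and 149 CPM against 29.1, 45.2, 39.997 and 29.9 CPM (1.58, SE 0.17), against 1673, 1873, 1705 and 2134 CPM in U2OS DMSO. Among the small heat shock proteins HSPB8 was at 2.08 at a low level, up to 6.397 CPM. HSPB1 stood at 90.3, 113, 90.5 and 136 CPM against 110.3, 95.8, 109.8 and 98.9 CPM (0.03, SE 0.13) and CRYAB (HSPB5) at 0.612, 0.309, 0.320 and 0.629 CPM against 0.337, 0, 0.222 and 0 CPM, at or near the floor. HSPA8, the constitutive HSP70, was at 0.38 and HSP90AA1 at 0.77, neither called. HSPA1A was at 1.45 and HSPA1B at 1.04, whose near-identical sequences make their counts uncertain. The chaperones of this list other than DNAJA1, DNAJB4, BAG3 and CLU were named after their values were seen. In U2OS cells 3 of 27 members tested rose with CPT and 0 fell, beside 7.97% and 5.50% of all genes (median 0.20).

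The chaperones of the endoplasmic reticulum had 0 of 21 members higher and 1 lower, beside 8.19% and 4.26% of all genes, and a median of -0.03. The lower one was XBP1, a factor of the unfolded protein response, at 90.6, 97.2, 91.5 and 93.05 CPM against 160.3, 254, 302 and 153 CPM (-1.25, SE 0.17), and at -0.77 against HEK293T DMSO libraries 22 to 25, under the threshold. HSPA5 (BiP), the main chaperone of this compartment, was at 0.10 and was named after its value was seen. Proteasome subunits were also level between the sets (0 of 32 called, beside 8.19% of all genes higher and 4.26% lower, median 0.03). PSMA7 was at -0.02 and PSMA4 at 0.26. Both sets lay above HEK293T DMSO libraries 22 to 25 for the proteasome, with medians of 0.72 and 0.61 over the list. Genes of autophagy and the lysosome were higher in 7 of 26 cases, against 8.19% of all genes, and lower in 0 (median 0.26). NEU1, the lysosomal sialidase, stood at 115, 100.3, 90.2 and 106 CPM against 38.6, 38.4, 36.2 and 40.8 CPM (1.40, SE 0.12), and OPTN, an autophagy receptor, at 141, 135, 137 and 212 CPM against 51.03, 78.4, 67.5 and 51.9 CPM (1.30, SE 0.16). MAP1LC3B, which coats autophagosomes, and ULK1, the kinase that starts them, were at 1.104, SE 0.12 and 1.17, SE 0.14. NEU1 gave a log2 fold change of 0.82 (SE 0.14, adjusted p = 2.77e-05) and OPTN a log2 fold change of 1.40 (SE 0.13, adjusted p = 1.72e-10) with CPT in U2OS by the quasi-likelihood test of edgeR.

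Genes of G2 and mitosis were higher in 5 of 35 cases (8.19% of all genes) and lower in 0, and 31 of the 35 lay above 0 (median 0.56). Without library 17, 8 were higher. AURKA, the kinase of the spindle poles, stood at 311, 298, 329 and 328 CPM in the even-numbered and 124, 125, 93.1 and 106 CPM in the odd-numbered libraries (1.47, SE 0.12). CENPE, a kinetochore motor, stood at 687, 703, 741 and 836 CPM against 359, 365, 354 and 343 CPM (1.04, SE 0.11). The values were tight within each set and did not overlap. HMMR and KIF20A, which act on the spindle and in cytokinesis, were at 1.19, SE 0.11 and 1.11, SE 0.17. In U2OS cells the direction was the opposite, with 10 of 35 members down (5.50% of all genes), 0 up and a median of -0.76. AURKA gave a log2 fold change of -0.90 (SE 0.12, adjusted p = 3.78e-07) there and KIF20A a log2 fold change of -1.40 (SE 0.14, adjusted p = 1.38e-09) by the quasi-likelihood test of edgeR. The DNA replication genes lay near 0 in the 8 libraries (median -0.17), with 0 of 36 higher and 1 lower, beside 8.19% and 4.26% of all genes. The lower one was LIG1, the ligase that joins Okazaki fragments, at 18.1, 21.6, 20.2 and 19.3 CPM against 48.7, 58.05, 46.2 and 37.9 CPM (-1.31, SE 0.16). Against HEK293T DMSO libraries 22 to 25 the median of this list in the even-numbered libraries was 0.20. In U2OS 8 of its 36 members fell, beside 5.50% of all genes.

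Of the inhibitors of cyclin-dependent kinases beyond CDKN1A, 3 of 6 were called higher, beside 8.19% of all genes. CDKN2B (p15) stood at 29.7, 27.2, 24.6 and 26.1 CPM against 5.56, 2.71, 5.56 and 7.98 CPM (2.304, SE 0.22). CDKN1C (p57) stood at 37.4, 41.7, 32.6 and 46.4 CPM against 11.5, 8.63, 15.6 and 11.5 CPM (1.74, SE 0.17), and CDKN2D (p19) at 31.8, 27.2, 31.99 and 26.4 CPM against 11.96, 13.5, 10.7 and 13.3 CPM (1.21, SE 0.16). All 3 were higher in every even-numbered library. CDKN1B (p27) was at -0.14, CDKN2A at -0.54 and CDKN2C (p18) at 0.36, none of them called and all named after their values were seen. In U2OS cells CDKN1C fell (log2 fold change -1.39, SE 0.17, adjusted p = 7.68e-08 by the quasi-likelihood test of edgeR) and CDKN2B was at 0.294, 0.620, 0 and 0 CPM with CPT. Of the whole list of G1 cyclins, inhibitors and E2F factors 5 of 24 were higher and 1, MYC, lower. Of all genes, 8.19% were higher and 4.26% lower. Topoisomerases and DNA damage response genes were level, with 0 of 34 higher, 2 lower (8.19% and 4.26% of all genes) and a median of -0.11. TOP1MT, the mitochondrial topoisomerase, was lower, at 18.1, 15.1, 12.2 and 18.9 CPM against 35.5, 44.7, 35.8 and 34.8 CPM (-1.24, SE 0.17). In the BCL2 family 1 of 14 was called, a share near the 8.19% of all genes called higher. It was the death-promoting BCL2L11 (BIM), at 36.1, 46.3, 32.3 and 26.4 CPM against 17.01, 11.8, 15.6 and 17.1 CPM (1.16, SE 0.17). BCL2L11 fell in U2OS with CPT (log2 fold change -1.82, SE 0.17, adjusted p = 6.65e-10 by the quasi-likelihood test of edgeR).

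Replication-dependent histones moved in both directions. Of 21 measured members, 11 were higher and 4 lower, beside 8.19% and 4.26% of all genes (median 1.34). Of the 11, HIST1H3B, HIST1H2BG, HIST2H2BF and HIST1H3D were scarce, at no more than 0.960, 1.23, 1.85 and 4.32 CPM, and were measured mainly through the even-numbered libraries. The 11 called higher coded for H2A, H2B or H3, and the 4 called lower were the linker histones HIST1H1C (-1.25), HIST1H1D (-1.45) and HIST1H1E (-2.35) and the H4 gene HIST1H4C (-1.63), which were named after their values were seen. Other H2A and H2B genes lay below 0 without being called, HIST2H2AC at -1.11 and HIST1H2BF at -1.29. HIST1H2BJ stood at 45.9, 50.6, 49.6 and 39.5 CPM in the even-numbered and 4.04, 3.05, 5.33 and 7.09 CPM in the odd-numbered libraries (3.25, SE 0.20), and HIST1H2AC at 48.7, 50.9, 41.6 and 52.97 CPM against 6.74, 5.75, 10.2 and 6.21 CPM (2.74, SE 0.17). HIST2H2BE stood at 25.4, 33.3, 19.2 and 23.9 CPM against 4.88, 3.05, 3.33 and 3.77 CPM (2.71, SE 0.21), and HIST1H2AG was at 2.91, SE 0.26. The sets were far apart in each. HIST1H4C, among the most abundant transcripts of all, stood at 878, 994, 822 and 735 CPM against 2033, 2708, 3426 and 2297 CPM. Histone genes have near-identical copies, and their main transcripts end without a poly(A) tail, which the library method needs, so that the counts are uncertain. In U2OS cells 11 of 17 members tested fell with CPT and 0 rose, beside 5.50% and 7.97% of all genes (median -1.74). HIST1H2AC was among those that fell (log2 fold change -1.54, SE 0.14, adjusted p = 1.3e-10 by the quasi-likelihood test of edgeR).

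The inflammatory genes called higher were scarce. Of 19 measured NF-kB targets and secreted factors, 9 were called higher and 0 lower (median 1.56). None of the 9 had a mean log2 CPM over 3, and of all genes at such levels 14.8% (0 to 3) and 11.8% (under 0) were called higher. CXCL8, the chemokine interleukin-8, reached 4.59, 4.63, 4.48 and 3.77 CPM in the even-numbered libraries against 0.168, 0, 0.222 and 0 CPM. CCL20 stood at 3.37, 1.85, 2.88 and 0.157 CPM and had no count in the odd-numbered libraries. Both were measured mainly through the even-numbered libraries and were named after their values were seen. The more abundant NFKBIA, the inhibitor of NF-kB, stood at 66.1, 75.6, 90.8 and 57.5 CPM against 35.2, 46.03, 43.8 and 39.7 CPM (0.78, SE 0.15), and RELA was at 0.01, neither called. With the filterByExpr filter 4 of the list were higher. In U2OS cells 10 of 21 members tested rose with CPT, against 7.97% of all genes, and 0 fell. Interferon-stimulated genes were higher in 5 of 21 cases (median 0.88) and in 2 with the filterByExpr filter, all of them at low levels, where 14.8% of all genes with a mean log2 CPM of 0 to 3, and 11.8% of those under 0, were called higher. The more abundant IFI6 (0.57) was not called.

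Neural and hormone genes, several of which HEK293T cells express at rest, were higher in 11 of 26 measured cases and lower in 0, beside 8.19% and 4.26% of all genes (median 1.23, or 0.67 with the filterByExpr filter and 0.55 as log2 ratios of mean CPM + 1). Only INA and SCG3 of the 11 had a mean log2 CPM over 3. The others, MAP2, VGF and NTS among them, had 0 to 3, where 14.8% of all genes were called higher. INA, the neurofilament alpha-internexin, stood at 49.3, 57.7, 49.9 and 56.7 CPM against 15.7, 16.9, 12.7 and 15.3 CPM (1.79, SE 0.14). SCG3, a protein of secretory granules, stood at 18.7, 14.8, 15.7 and 20.9 CPM against 3.03, 3.38, 1.78 and 2.88 CPM (2.62, SE 0.23). The libraries of each set agreed closely for both. The neurofilament NEFM, a marker of HEK293T cells, did not follow, with -0.77, and MAP2, VGF and NTS were at 3.79, 3.61 and 3.22. These 4 were named after their values were seen. INA and SCG3 were at or near 0 in the U2OS libraries.

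Among metabolic lists, 2 of 21 cholesterol genes were lower, beside 4.26% of all genes: INSIG1, which retains the SREBP factors, at 122, 124, 117 and 90.7 CPM against 383, 177, 223 and 432 CPM (-1.44, SE 0.19, and -0.84 against HEK293T DMSO libraries 22 to 25, under the threshold), and SREBF2, the factor itself, at 36.4, 38.3, 35.5 and 31.3 CPM against 83.4, 75.3, 76.7 and 78.2 CPM (-1.18, SE 0.12). No other member was called, and 5 of 21 lay above 0 (list median -0.20). The enzymes LSS, DHCR7 and SQLE were at -0.80, -0.78 and -0.69, named after their values were seen. Of 25 glycolysis and hypoxia genes 3 were higher and 3 lower, beside 8.19% and 4.26% of all genes. VEGFA, the angiogenic factor, stood at 13.2, 15.7, 12.5 and 11.5 CPM against 32.2, 35.7, 49.1 and 39.2 CPM (-1.60, SE 0.17), and HK2 and PDK1 were at -1.19, SE 0.25 and -1.096, SE 0.15, while EGLN3 was at 1.23, SE 0.23. Of 20 NRF2 targets 1 was higher and 1 lower, beside 8.19% and 4.26% of all genes. HMOX1, heme oxygenase 1, was higher, at 32.5, 47.5, 43.5 and 48.7 CPM against 11.5, 7.78, 9.999 and 8.201 CPM (2.18, SE 0.17). TKT, transketolase, was lower, at 244, 343, 260.4 and 216 CPM against 622, 633, 616 and 522 CPM (-1.20, SE 0.13). The mitochondrially encoded genes all lay above 0 (13 of 13, beside 52.6% of all genes, median 0.49). Of these, 2 were called higher, beside 8.19% of all genes, MT-ND1 (1.13, SE 0.18) and MT-ND5 (1.02, SE 0.13). Without library 10 none was called, and the share of counts on these genes moved with the split, as given above.

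Long genes, whose transcription is known to depend on topoisomerase 1, shared no direction. Of 26 measured, 3 were higher and 3 lower, beside 8.19% and 4.26% of all genes (median -0.28). IMMP2L stood at 6.12, 1.23, 4.16 and 2.04 CPM against 11.96, 11.8, 10.9 and 10.6 CPM (-1.84, SE 0.30), and CNTNAP2, a neuronal adhesion protein, at 66.7, 65.7, 67.2 and 60.4 CPM against 28.1, 19.8, 22.7 and 30.6 CPM (1.34, SE 0.14). In U2OS CNTNAP2 fell with CPT (log2 fold change -1.91, SE 0.22, adjusted p = 3.56e-08 by the quasi-likelihood test of edgeR). Extracellular matrix genes were level between the sets, with 2 of 25 higher, near the 8.19% of all genes, and a median of -0.06. LAMC1 and COL6A1 were at 0.02 and -0.51, neither called.

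Over all genes, 1182 of the genes called higher were also tested in U2OS, where 235 of them (19.9%) rose with CPT and 108 (9.14%) fell. These 235 are 22.9% of the 1026 genes that rose in U2OS among the 16503 tested in both. Of 736 genes called lower and tested in U2OS, 85 (11.5%) fell there and 25 (3.40%) rose, and the 85 are 9.25% of the 919 genes that fell in U2OS. Of the 14585 genes called neither higher nor lower, 5.25% rose in U2OS and 4.98% fell. Several lists had medians above 0 in both comparisons, among them the p53, NF-kB, neural and hormone, autophagy and mitochondrially encoded lists. The histone and G2 and mitosis lists lay above 0 in the 8 libraries and below 0 in U2OS. The difference between the cell lines was not tested, since the first contrast chose its own libraries.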

How the data were processed

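RNA of 32 libraries was sequenced by the authors with the QuantSeq 3′ mRNA kit (FWD, with UMI). The authors deposited raw counts per gene made with Lexogen's QuantSeq pipeline (FWD UMI, version 2.3.1), without normalization. The genome build and annotation are not given in the sources used here. GENCODE 29 named 56531 of 60107 gene identifiers. Rows of no gene (reads on no feature, 9.39% to 18.5% in the 8 libraries, and ambiguous reads, 1.23% to 1.51%) and 92 spike-ins were left out, and 0 columns were left out.

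Even- and odd-numbered libraries were compared with edgeR 4.0.16 under R 4.3.3, by glmQLFit after TMM normalization, keeping genes whose count exceeded 1 in 2 or more libraries. Calls used a log2 fold change over 1 and TMM-scaled CPM without overlap. U2OS CPT and DMSO (4 libraries each) were compared by edgeR's quasi-likelihood test at a Benjamini-Hochberg adjusted p under 0.05 and the same fold. Printed CPM use counts on genes. The 8 libraries and the 23 gene lists were chosen with earlier results of these data known. Named genes were the 12 with the largest fold change each way among called genes with mean log2 CPM over 3, up to 4 called members of each list by the same level (or the 2 most abundant if none was called), ATM and TOP1. Alternatives were RLE normalization, other filters, DESeq2 1.42.0, log2 ratios of mean CPM + 1, a fold cutoff of 1.5, HEK293T DMSO libraries 22 to 25 as reference, edgeR's likelihood ratio test in U2OS and each library left out. The procedure was tested on simulated data. Promoter sequences and motif matches came from RefSeq on GRCh38.p14. Some named genes are not reported here.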

Additional observations from a re-analysis of the deposited data

Results flagged for a closer look

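Among the 79 named genes, 158 sets of 4 libraries were screened for 1 library whose gap to the nearest other, as a share of the range, exceeded Dixon's critical value, and 10 did; chance gives about 1 in 20. In the odd-numbered libraries GDF15 was at 26.2 CPM in library 15 against 3.20 to 5.25 CPM in the others. TOP1MT (44.7 CPM, others 34.8 to 35.8), EGR1 (5.42 CPM, others 2.66 to 3.11) and MT-ND1 (1616 CPM, others 1083 to 1102) stood apart in library 13, ULK1 (19.1 CPM, others 24.2 to 24.9) in library 15 and TKT (522 CPM, others 616 to 633) in library 17. In the even-numbered libraries OPTN (212 CPM, others 135 to 141) and HK2 (5.19 CPM, others 9.80 to 10.2) stood apart in library 16, DNAJB4 (65.1 CPM, others 49.5 to 50.8) in library 12 and MAP1LC3B (131 CPM, others 159 to 162) in library 14.

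For 18 named genes that were called between the even- and odd-numbered libraries, the CPM of the U2OS CPT and DMSO libraries did not overlap either and lay in the opposite order. The difference itself was not tested. Of those higher in the even-numbered libraries, the U2OS log2 fold changes were -2.17 for SNORD46, -1.62 for SGK1, -1.09 for HIST1H2BJ, -1.54 for HIST1H2AC, -1.40 for KIF20A, -1.39 for CDKN1C, -1.01 for IER3, -1.01 for JUNB, -1.26 for SPRY2, -1.82 for BCL2L11 and -1.91 for CNTNAP2, all called down by edgeR's quasi-likelihood test. AURKA (-0.90), CENPE (-0.71), EGR1 (-0.54), HMMR (-0.50) and HIST2H2BE (-0.24) did not reach the fold threshold in U2OS. MYC and RUNX1T1 were lower in the even-numbered libraries and rose in U2OS, by 1.32 and 2.01. The RUNX1T1 call rests on 0.24 to 2.17 CPM in U2OS and was lost without library 27 (edgeR's adjusted p = 0.0817) and with DESeq2 (adjusted p = 0.0669). HIST1H2BJ was at -0.99 without library 27, under the threshold, and JUNB at -0.94 to -0.82 without library 28, 29, 30 or 31.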

How the results depend on the processing

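No paired analysis was possible because the library numbers are unique to each library and no number is shared between the sets. Limits are that the even and odd contrast chose its own libraries, that the identity of both sets is inferred, and that low genes decide the balance of calls. Over 23 list medians and 6 alternatives that can move them, 111 of 138 values moved by less than the spread between libraries, as did 180 of 184 with 1 library left out. For named genes it was 414 of 474 and 629 of 632. Of the 60 that moved, 49 (of 79 named genes) did so against HEK293T DMSO libraries 22 to 25 and 11 with log2 ratios of mean CPM + 1. No called gene changed sign. In U2OS, 362 of 363 alternative values kept direction and call, and 572 of 592 with 1 library left out.

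Genes higher came to 797 with filterByExpr and 836 with log2 ratios of mean CPM + 1, against 1594. Genes lower came to 518 with log2 ratios, 1974 with a fold cutoff of 1.5 and 1603 against HEK293T DMSO libraries 22 to 25, against 830. U2OS genes up came to 919 with filterByExpr, against 1520. With 1 library left out, genes higher ran from 1612 to 1898 and genes lower from 890 to 995, since smaller sets overlap less.

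List medians with filterByExpr were 0.038 for endoplasmic reticulum chaperones, -0.10 for DNA replication, 0.85 for NF-kB targets, 0.63 for interferon-stimulated genes, 0.67 for neural and hormone genes and 0.10 for the proteasome. Without a filter the neural and hormone median was 1.54, and the median of all genes moved to 0.22. Log2 ratios of mean CPM + 1, which shrink low genes, gave 0.74 for histones, 0.78 for NF-kB targets, 0.55 for interferon-stimulated genes, 1.19 for immediate early factors and 0.55 for neural and hormone genes. Against HEK293T DMSO libraries 22 to 25, the DNA replication median reversed to 0.20, and the cause was not tested. The others were -1.48 for ATF4, 0.77 for G2 and mitosis, 0.61 for NRF2, 0.99 for NF-kB, 0.67 for interferon-stimulated genes, 1.52 for immediate early factors, 1.53 for neural and hormone genes, 0.41 for the BCL2 family, 0.18 for MYC targets, 0.72 for the proteasome, 0.48 for autophagy, -0.021 for glycolysis, -0.61 for extracellular matrix and -0.57 for long genes. These medians take the members that pass the filter in that fit; over the members measured in the main comparison they were -0.52 for extracellular matrix, -0.62 for long genes, 1.07 for NF-kB and 1.71 (not 1.60) for histones. With 1 library left out, medians ran from -0.069 (without library 12) to 0.076 (without library 16) for endoplasmic reticulum chaperones, 1.67 to 2.01 for immediate early factors, 0.98 to 1.34 for neural and hormone genes and -0.33 to -0.14 (without library 11) for glycolysis.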

Other observations

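Both sets differed from HEK293T DMSO libraries 22 to 25 in ways that the even and odd split does not share. ATM stood at 28.8 to 39.8 CPM and 21.2 to 36.3 CPM in the sets and at 57.8 to 82.0 CPM in libraries 22 to 25. The median of the proteasome list against those libraries was 0.72 in the even-numbered and 0.61 in the odd-numbered set on the log2 scale, that of the extracellular matrix list was -0.52 and -0.53, and that of the NRF2 targets 0.61 and 0.63. These comparisons share the 4 reference libraries and were not tested.

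Protein-coding genes with a mean log2 CPM over 3 were put in 10 bins by the length of the gene in GENCODE 29, and the median log2 fold change, even minus odd, ran from -0.20 in the shortest bin (up to 6.27 kb) to -0.02 in the ninth, and was -0.15 in the longest (over 170 kb). In the longest bin 34 of 970 genes were higher (3.5%) and 49 lower (5.05%), and in the shortest 55 (5.67%) and 71 (7.32%). Of all genes with a mean log2 CPM of 3 to 6, 3.76% were higher and 5.87% lower. For those over 6 the shares were 1.65% and 3.25%.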
